A study of Mus musculus with 18 samples.

Results

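The genes described here encode the activin system of cultured mouse astrocytes. They are 2 activin subunits (Inhba, Entrez 16323, and Inhbb, 16324), 3 follistatins (Fst, 14313, Fstl3, 83554, and Fstl1, 14314) and 3 receptors (Acvr1, 11477, Acvr1b, 11479, and Acvr2a, 11480). They were chosen by gene family and found in both deposited tables by matching Entrez identifiers to mouse symbols. All 8 were present among the 22078 genes listed, and all 8 passed the filter on low counts at both times.

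Poly-A RNA was sequenced from cultured mouse cortical astrocytes in 6 groups of 3 libraries. Cells were transfected with a plasmid for hM3Dq (a designer muscarinic receptor that couples to Gq), rM3Ds (coupled to Gs) or hM4Di (coupled to Gi), or with a control plasmid for EGFP, and were lysed at the end of 90 min in the ligand deschloroclozapine (DCZ). A second set carried hM3Dq or the control protein mCherry, had the same 90 min in DCZ and was lysed after 3 further days in medium free of ligand. Every group, controls included, received 8 µM DCZ 7 days after transfection and grew in medium with serum. The labels give neither the promoter of the plasmids nor the share of cells that took them up, and no group without ligand was used here. The control protein differs between the times, so time and control plasmid cannot be told apart in the comparison of the 2 times.

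Activins are secreted dimers of inhibin beta subunits and belong to the TGF-beta family. They bind a type II receptor such as ACVR2A, which recruits and activates the type I receptor ACVR1B, and this phosphorylates the transcription factors SMAD2 and SMAD3. Follistatin and FSTL3 bind activins outside the cell and keep them from their receptors. In the brain, activin A, the dimer of the Inhba product, is known as a factor made after neuronal activity and injury.

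Library totals ran from 16.1 to 25.2 M counts, so that a floor of 3 counts stood at 0.119 to 0.187 CPM (the count scaled to a total of 1 M). Of the astrocyte genes, Sox9 ran from 109 to 318 CPM and Aqp4 from 16.9 to 145 CPM over the 18 libraries. By contrast, Gfap had a median of 2.73 CPM and S100b of 2.38 CPM, and Gjb6 was at 0 in 16 libraries. Of the fibroblast and mural genes, Col1a1 ran from 652 to 1920 CPM, whereas Col3a1 had a median of 1.46 CPM and Rgs5 of 0.111 CPM. The microglial gene P2ry12 was at 0 in 16 libraries, and Olig2 of the oligodendrocyte lineage at 0 in 14. From the same lists, Tmem119 (1.45 to 9.22 CPM) and Mbp (1.37 to 14 CPM) were above 0 in every library. Of the neuronal genes, Map2 ran from 94.7 to 172 CPM, whereas Snap25 was at 0 in 8 libraries. Where cultures may hold several cell types, fewer cells of a type and less RNA per cell cannot be told apart. Among the 12 libraries lysed at 90 min, 3 lay far from the rest on the first principal component, which held 52.5% of the variance. They were replicates 2 and 3 of rM3Ds and replicate 1 of EGFP, with scores of -53.3, -54.9 and -65.5. Replicate 1 of hM4Di lay between, at -8.6, and the others had scores of 17.5 to 25.5. At 3 days replicate 3 of mCherry stood apart in the same way, with 56.7% of the variance on that component. Fos, an immediate early gene used as a check of stimulation, had 53.3, 56 and 52.7 CPM in hM3Dq cells at 90 min, against 10, 14.9 and 15.3 CPM in EGFP cells (log2 fold change 2.01, adjusted p = 6.18e-05 in edgeR's quasi-likelihood test).

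Levels are CPM after TMM scaling within each table, for replicates 1, 2 and 3 in that order. Each gene was tested with edgeR's quasi-likelihood test on the whole table, and was called where its p, adjusted by Benjamini and Hochberg's method across that table, was under 0.05. Among the 8 genes, 1 was called in hM3Dq against EGFP cells at 90 min, and it was Inhba, which was higher. Of all 13584 genes tested, 0.788% were called in this comparison, 0.758% as higher and 0.0294% as lower. DESeq2 also called Inhba alone of the 8, and 1.72% of all genes. An unadjusted p below 0.05 was found for 3 of the 8, against 7.94% of all genes. The median log2 fold change of the 8 genes was 0.11, against 0 over all genes tested.

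**Figure D1:**
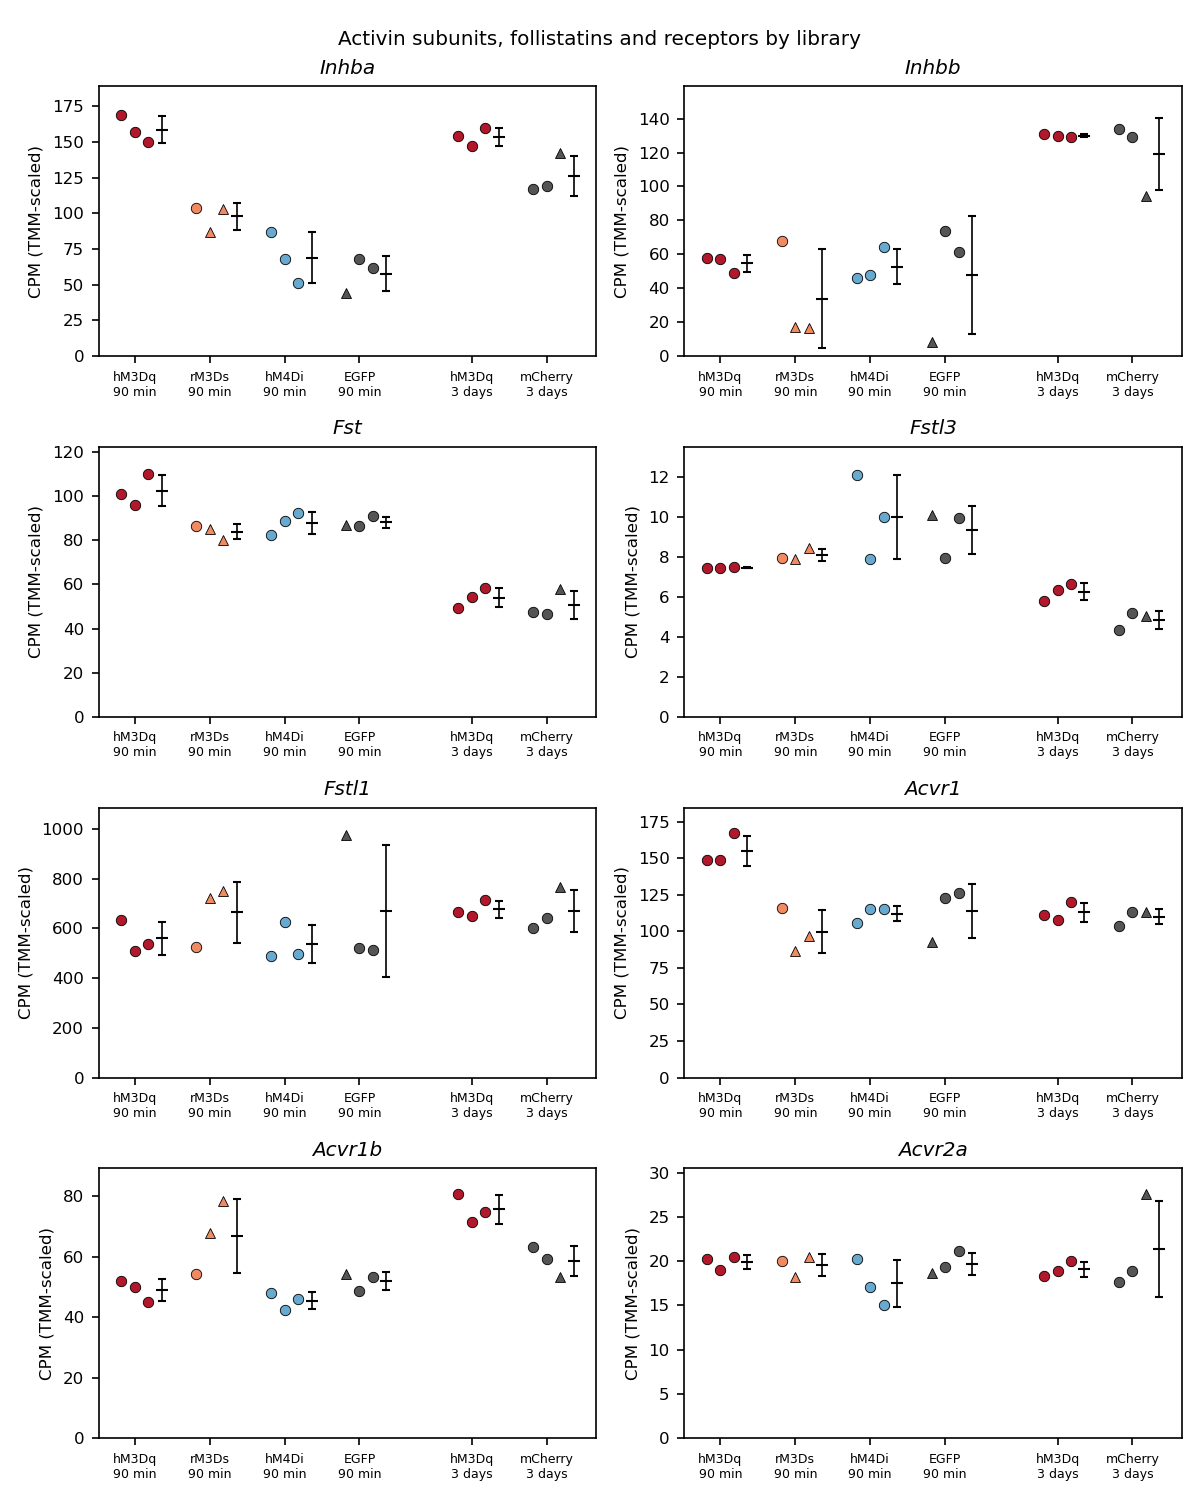
CPM after TMM scaling (vertical axes, each from 0) of the 8 genes in each library of the 6 groups; points are replicates 1 to 3 from left to right, triangles are the libraries that stood apart on the first principal component, and bars are mean ± SD. Inhba is highest in the hM3Dq groups, whereas Inhbb and Fstl1 take their outlying values in the libraries drawn as triangles.

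Inhba encodes the beta A subunit, the building block of activin A. The 250 bases before its annotated start are shown because Inhba was the only one of the 8 genes called against EGFP, and those of Fstl3 because no other window among the 7 matched held the letters TATAAA. The Inhba window lies at chr13:16011601-16011850 on the plus strand and the Fstl3 window at chr10:79777024-79777273 on the plus strand, both in GRCm38.p6 from RefSeq; capitals mark the letters TATAAA on either strand.
Inhba: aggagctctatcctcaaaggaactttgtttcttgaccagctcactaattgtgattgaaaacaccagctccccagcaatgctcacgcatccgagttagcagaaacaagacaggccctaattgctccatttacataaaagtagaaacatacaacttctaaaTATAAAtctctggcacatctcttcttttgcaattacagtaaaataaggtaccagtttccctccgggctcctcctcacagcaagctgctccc
Fstl3: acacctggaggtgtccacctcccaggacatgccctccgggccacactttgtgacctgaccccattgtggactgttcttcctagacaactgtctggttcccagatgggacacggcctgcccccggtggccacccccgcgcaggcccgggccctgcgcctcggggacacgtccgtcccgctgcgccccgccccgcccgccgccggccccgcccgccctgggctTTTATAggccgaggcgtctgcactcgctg

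Windows were matched for 7 of the 8 genes, all but Fst. The Inhba window held 43.2% G or C, whereas the other 6 held 68% to 85.6%, and the median over 32851 mouse promoter windows was 52.4%. TATAAA, the letters of a TATA box, was found 91 bases before the start of Inhba and, as its complement TTTATA, 29 bases before that of Fstl3, counted from the first base of the match. It was in no other of the 7 windows and in 12.4% of all windows. GGAAA, the core letters bound by NFAT factors, was found 37 bases before the start of Inhba as its complement, 2 times in the Inhbb window, and in 55.6% of all windows. The cAMP response element TGACGTCA (1.55% of all windows), its shorter core TGACG (17.8%) and the AP-1 letters TGANTCA (6.75%) were searched on both strands and were in none of the 7 windows. The SMAD box GTCTG (42.2% of all windows) was found 161 and 14 bases before the start of Fstl3 and 188 bases before that of Acvr2a, and in none of the other 5. These matches describe letters in a short window and do not show binding.

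Inhba had 169, 157 and 150 CPM in hM3Dq cells at 90 min, against 44.2, 67.8 and 61.4 CPM in EGFP cells. The lowest hM3Dq library was above the highest EGFP library by more than the whole range within either group. The rise was 1.46 ± 0.19 on the log2 scale (SE; 95% interval 1.01 to 1.9), or 2.75-fold, with an adjusted p of 0.0043 in edgeR's quasi-likelihood test, and Inhba ranked number 33 of all genes by p. Without the 3 libraries that stood apart it was 1.29 (adjusted p = 0.0131). For this pair of groups, deviations of same-numbered libraries from their group means had weak correlations of 0.133, 0.162 and 0.123. The labels do not say that the numbers pair libraries. With the replicate number as a block the Inhba value was 1.45 (adjusted p = 0.0216, edgeR). With only these 2 groups in a paired fit it was 1.47 and no longer called (adjusted p = 0.105, edgeR).

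Flt1, a receptor for vascular growth factors that is used as an endothelial marker, rose in the same comparison. It had 21.5, 22.7 and 18 CPM in hM3Dq cells and 9.89, 7.67 and 6.57 CPM in EGFP cells (log2 fold change 1.36 ± 0.26, adjusted p = 0.0351, edgeR). Tek, the other endothelial gene tested, had 18.5 to 22.3 CPM in hM3Dq cells and 5.16 to 23.2 CPM in EGFP cells (0.27 ± 0.63, adjusted p = 0.978), the lowest value being that of the EGFP library that stood apart. The endothelial genes Cldn5 and Pecam1 were at or near 0 in both groups. The 6 endothelial genes summed to 41.1 to 41.5 CPM in hM3Dq cells and 16.2 to 31.4 CPM in EGFP cells, and 1 of the 2 that were tested was called. Summed CPM was 915 to 1030 in hM3Dq and 689 to 1030 in EGFP cells for astrocyte genes, and 2420 to 3100 in hM3Dq and 2210 to 2660 in EGFP cells for fibroblast and mural genes. It was 3.15 to 3.92 in hM3Dq and 3.34 to 11 in EGFP cells for microglial genes, and 144 to 148 in hM3Dq and 142 to 178 in EGFP cells for neuronal genes. For oligodendrocyte genes it was 14.4 to 16.5 in hM3Dq and 6.57 to 19.3 in EGFP cells. No tested gene of these 5 lists was called, and their part in the Inhba result was not tested.

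In rM3Ds cells Inhba had 104, 86.9 and 103 CPM, again with no overlap with the 44.2 to 67.8 CPM of EGFP cells. The log2 fold change was 0.76 ± 0.19 (95% interval 0.32 to 1.20), which did not pass the adjusted threshold in edgeR's quasi-likelihood test (adjusted p = 0.547). No gene of the 8 was called in this comparison, against 0.0147% of all genes; 2 of the 8, Inhba and Acvr1b, had an unadjusted p below 0.05, against 4.23% of all genes. DESeq2 called Inhba here (0.77, adjusted p = 0.0372) and 0.422% of all genes, and limma-voom none of the 8.

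In hM4Di cells Inhba had 87.1, 68.3 and 51.5 CPM, and the range overlapped that of EGFP cells. The log2 fold change was 0.26 ± 0.19 (95% interval -0.18 to 0.69, adjusted p = 0.841, edgeR). It was 0.04 without replicate 1 and 0.44 without replicate 3 of hM4Di, 0.11 without replicate 1 and 0.41 without replicate 2 of EGFP, and was called in none of 16 alternatives. None of the 8 genes was called against EGFP, nor was any gene of the table (0%), although 5.48% of all genes and 0 of the 8 had an unadjusted p below 0.05. DESeq2 called 35 genes of the whole table and limma-voom 0, and neither called any of the 8.

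Between receptors, Inhba was higher in hM3Dq than in hM4Di cells by 1.20 ± 0.19 on the log2 scale (95% interval 0.76 to 1.64; 2.30-fold; adjusted p = 0.0148, edgeR), with no overlap. It was the only one of the 8 genes called there, against 0.802% of all genes, and 4 of the 8 had an unadjusted p below 0.05, against 11.4%. DESeq2 called Inhba and Acvr1 there, and 3.11% of all genes. The edgeR call of Inhba was lost with the replicate block (adjusted p = 0.052) and without replicate 2 (0.0757) or 3 (0.0665) of hM4Di or replicate 1 (0.0916) or 2 (0.0779) of hM3Dq, at values of 1.02 to 1.21. Set against rM3Ds cells, the difference was 0.69 ± 0.19 (95% interval 0.26 to 1.13) with no overlap, and was not called (adjusted p = 0.149, edgeR). None of the 8 genes was called between hM3Dq and rM3Ds cells by edgeR, against 0.67% of all genes, whereas 4 had an unadjusted p below 0.05, against 14.2%, and DESeq2 called those 4: Inhba (adjusted p = 0.024), Fst (0.0214), Acvr1 (0.00099) and Acvr1b (0.0401). DESeq2 called 3.42% of all genes in that comparison. Limma-voom called none of them, and with only these 2 groups in the edgeR fit Inhba was called (0.69, adjusted p = 0.0231). Between rM3Ds and hM4Di cells the Inhba difference was 0.51 ± 0.19 (adjusted p = 0.408, edgeR), and the lowest rM3Ds library, at 86.9 CPM, lay just under the highest hM4Di library, at 87.1 CPM. By mean level Inhba thus ordered as hM3Dq (159 ± 9.22 CPM, SD, n = 3), rM3Ds (98.1 ± 9.74), hM4Di (68.9 ± 17.8) and EGFP (57.8 ± 12.2).

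**Figure D2:**
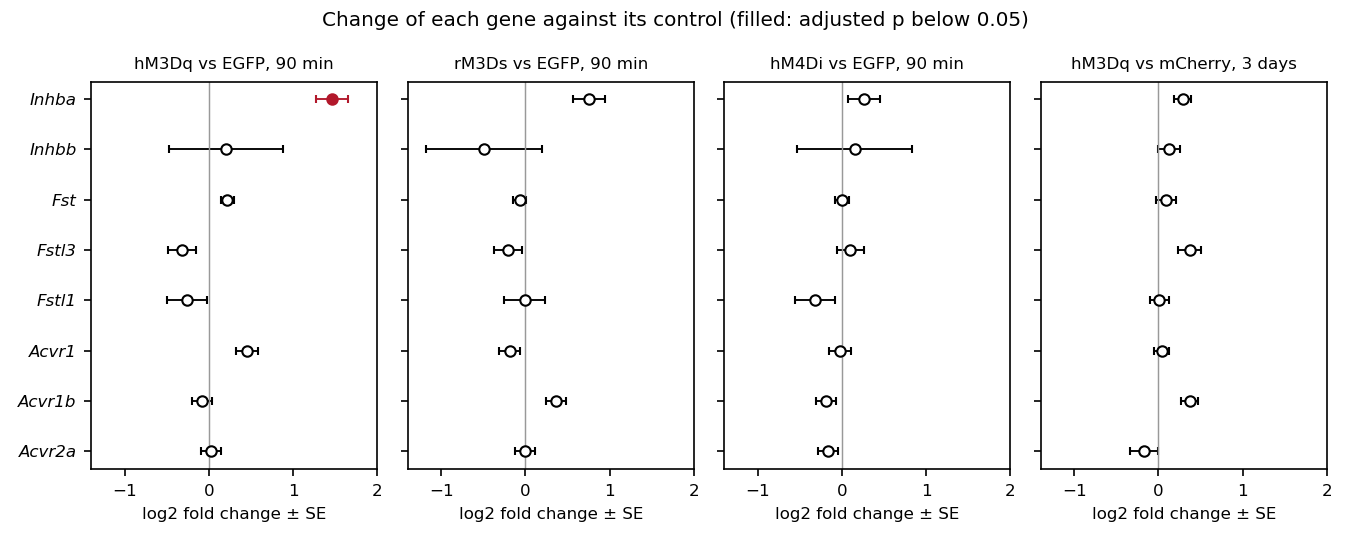
Log2 fold change ± SE (horizontal axes) of the 8 genes for each receptor against its own control, in edgeR's quasi-likelihood test; a filled point has an adjusted p below 0.05. The single filled point is Inhba in hM3Dq against EGFP cells, at 1.46.

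At 3 days Inhba had 154, 147 and 160 CPM in hM3Dq cells and 117, 119 and 142 CPM in mCherry cells. The groups did not overlap, and the log2 difference was 0.29 ± 0.10 (95% interval 0.01 to 0.57), which was not called (adjusted p = 0.328, edgeR). No gene of the 8 and no gene of all 12807 tested was called at 3 days (0%). An unadjusted p below 0.05 was found for 3 of the 8 genes and for 12% of all genes, DESeq2 called 156 genes of the table and limma-voom 1, and none of these calls was among the 8. Without the mCherry library that stood apart, 1257 genes of the table were called, against 0 of 12807 tested in the main fit. Among the 1257 were Inhba (0.39, adjusted p = 0.000847, edgeR) and Acvr1b (0.31, adjusted p = 0.00954), so these calls came with many others.

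The effect of hM3Dq on Inhba was smaller at 3 days than at 90 min by 1.16 on the log2 scale (-1.16 ± 0.20, 95% interval -1.61 to -0.71, adjusted p = 0.025, edgeR), each effect being taken against its own control. Inhba was the only one of the 8 genes called in this difference, against 0.396% of 13391 genes, and 4 of the 8 had an unadjusted p below 0.05, against 9.73%. Its level in hM3Dq cells covered 147 to 160 CPM at 3 days and 150 to 169 CPM at 90 min, whereas control cells had 117 to 142 CPM at 3 days (mCherry) and 44.2 to 67.8 CPM at 90 min (EGFP); the tables were scaled separately and these levels were not tested across times. The difference kept its direction in all 20 alternatives, between -1.29 and -1.0. Omission of the libraries that stood apart at 90 min is here the same fit as omission of replicate 1 of EGFP, and both are counted. It lost its call with the replicate block (adjusted p = 0.0904) and when any 1 of the 6 hM3Dq libraries (0.0562 to 0.115) or replicate 2 of mCherry (0.0507) was left out.

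Inhbb encodes the beta B subunit, which forms activin B. It had 57.9, 57.4 and 48.7 CPM in hM3Dq cells, 67.6, 17.3 and 16.6 CPM in rM3Ds cells, 46.2, 47.7 and 64.5 CPM in hM4Di cells and 8.04, 73.5 and 61.2 CPM in EGFP cells. The 3 low values were those of the 3 libraries that stood apart. Against EGFP the log2 fold change was 0.20 ± 0.68 for hM3Dq (95% interval -1.37 to 1.78), -0.49 ± 0.69 for rM3Ds and 0.15 ± 0.68 for hM4Di, with adjusted p values of at least 0.97 in edgeR's quasi-likelihood test. Without those 3 libraries the value for hM3Dq turned to -0.31 and that for hM4Di to -0.37. At 3 days Inhbb had 131, 130 and 129 CPM in hM3Dq cells and 134, 129 and 94.6 CPM in mCherry cells, where the low value was that of the library that stood apart (0.12 ± 0.13, adjusted p = 0.668).

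Fst encodes follistatin, the secreted inhibitor that binds activin. It had 101, 96.1 and 110 CPM in hM3Dq cells, 86.3, 85.1 and 79.9 CPM in rM3Ds cells, 82.4, 88.6 and 92.5 CPM in hM4Di cells and 87.1, 86.3 and 90.8 CPM in EGFP cells. All 3 hM3Dq libraries lay above all 9 others, by a small margin. The log2 fold change in hM3Dq against EGFP cells was 0.22 ± 0.08 (95% interval 0.04 to 0.40) and was not called (adjusted p = 0.456, edgeR). For rM3Ds it was -0.07 ± 0.08 (95% interval -0.25 to 0.11) and for hM4Di 0.00 ± 0.08 (-0.18 to 0.17). At 3 days Fst had 49.5, 54.4 and 58.2 CPM in hM3Dq cells and 47.4, 46.5 and 58.1 CPM in mCherry cells, which overlapped (0.09 ± 0.12, adjusted p = 0.716). An antisense gene, Gm47040, shares 115 exon bases with Fst, and the sources used here do not say whether counting used strand.

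Fstl3 encodes a second secreted activin inhibitor related to follistatin. Its level was low, at 7.44, 7.44 and 7.48 CPM in hM3Dq cells, 7.93, 7.87 and 8.41 CPM in rM3Ds cells, 12.1, 7.88 and 9.97 CPM in hM4Di cells and 10.1, 7.95 and 9.91 CPM in EGFP cells. The hM3Dq libraries were the lowest of the 12. In hM3Dq against EGFP cells the log2 fold change was -0.32 ± 0.17 (95% interval -0.71 to 0.06, adjusted p = 0.701, edgeR). At 3 days the groups lay the other way round, with 5.79, 6.34 and 6.62 CPM in hM3Dq cells and 4.34, 5.16 and 5.05 CPM in mCherry cells and no overlap (0.37 ± 0.14, adjusted p = 0.388). The difference between the 2 effects was 0.70 ± 0.21 (95% interval 0.21 to 1.18) and was not called (adjusted p = 0.284, edgeR). Fstl3 rested on 81 to 305 counts per library and shares 1157 exon bases with Prss57 on the opposite strand, so its values are uncertain.

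Fstl1 encodes a secreted glycoprotein with a follistatin-like domain. It had 634, 509 and 538 CPM in hM3Dq cells, 524, 722 and 749 CPM in rM3Ds cells, 490, 627 and 497 CPM in hM4Di cells and 977, 521 and 512 CPM in EGFP cells. The 3 highest values were those of the libraries that stood apart, the same 3 in which Inhbb was lowest. No comparison called it, and in hM3Dq against EGFP cells the log2 fold change was -0.26 ± 0.24 (adjusted p = 0.917, edgeR), or 0.11 without those libraries. At 3 days it had 666, 650 and 713 CPM in hM3Dq cells and 603, 641 and 766 CPM in mCherry cells (0.01 ± 0.11, adjusted p = 0.959).

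Across the 12 libraries at 90 min, log2 levels of Inhbb and Fstl1 had a correlation of -0.922, and of -0.912 after each group's mean was taken off. The libraries share groups, and 3 of them set much of the spread. Those 3 had summed CPM of 342, 343 and 529 over 10 cell cycle genes, against 108 to 220 in the other 9. Over the other 9, Inhbb ran from 46.2 to 73.5 CPM and Fstl1 from 490 to 634 CPM. Whether cell proliferation plays a part in these levels was not tested. Inhbb and Acvr1 had a correlation of 0.689, or 0.887 within groups, over the same libraries.

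**Figure D3:**
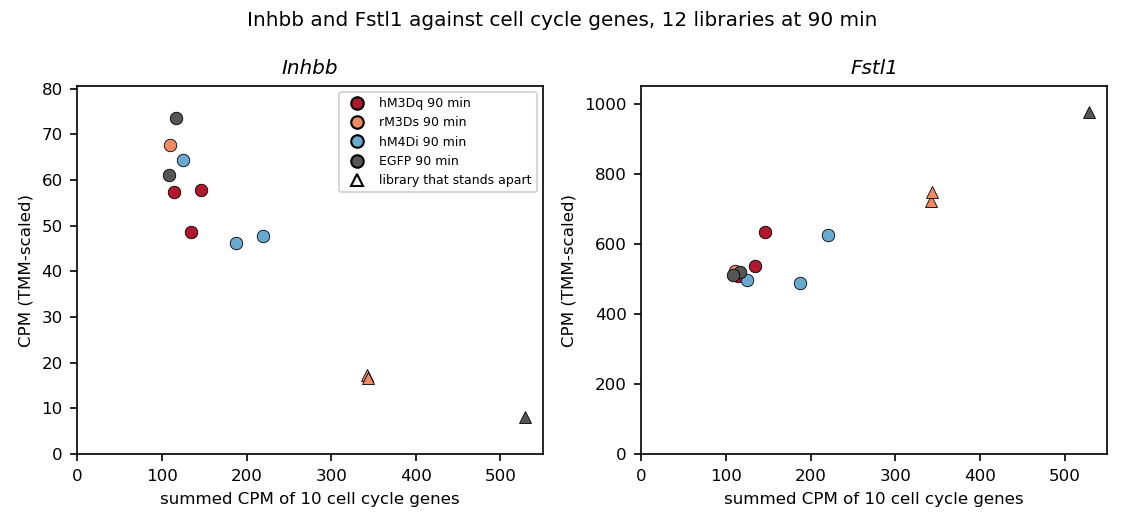
CPM of Inhbb (left) and Fstl1 (right) against the summed CPM of 10 cell cycle genes in the 12 libraries at 90 min, coloured by group, with triangles for the 3 libraries that stood apart. These 3 lie at 342 to 529 summed CPM, with the lowest Inhbb and the highest Fstl1 levels.

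Acvr1 encodes a type I receptor best known for bone morphogenetic proteins, which also binds activin A. It had 149, 149 and 167 CPM in hM3Dq cells, 116, 86.7 and 96.9 CPM in rM3Ds cells, 106, 115 and 115 CPM in hM4Di cells and 92.6, 123 and 126 CPM in EGFP cells. All 3 hM3Dq libraries lay above the other 9. Against EGFP the log2 fold change was 0.45 ± 0.13 (95% interval 0.14 to 0.75), and it was not called (adjusted p = 0.278, edgeR). Against rM3Ds it was 0.64 ± 0.13 (95% interval 0.33 to 0.94, adjusted p = 0.0623) and against hM4Di 0.47 ± 0.13 (95% interval 0.16 to 0.78, adjusted p = 0.155). Without replicate 1 of rM3Ds, the library of that group that did not stand apart, the difference from rM3Ds cells was called (0.75, adjusted p = 0.0156, edgeR). That fit called 590 genes of the whole table for this pair, against 91 in the main fit. With a term in the edgeR fit for the 3 libraries that stood apart, the difference from hM4Di cells was called (0.47, adjusted p = 0.00893). That fit called 383 genes of the whole table for this pair, against 109 in the main fit. The difference from rM3Ds cells was then 0.39 (adjusted p = 0.136). Without those 3 libraries the values were 0.47 from hM4Di cells and 0.42 from rM3Ds cells, the latter resting on replicate 1 of rM3Ds alone. At 3 days it had 111, 108 and 120 CPM in hM3Dq cells and 104, 113 and 113 CPM in mCherry cells (0.04 ± 0.09, adjusted p = 0.834).

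Acvr1b encodes the main type I receptor for activins. It had 51.9, 50.1 and 45.1 CPM in hM3Dq cells, 54.3, 67.8 and 78.4 CPM in rM3Ds cells, 48.1, 42.4 and 46 CPM in hM4Di cells and 54.2, 48.6 and 53.2 CPM in EGFP cells. The rM3Ds libraries were the highest, the lowest of them only just above EGFP replicate 1, and the others were libraries that stood apart. The log2 fold change in rM3Ds against EGFP cells was 0.36 ± 0.12 (95% interval 0.08 to 0.65) and was not called (adjusted p = 0.992, edgeR). Between rM3Ds and hM4Di cells it was 0.55 ± 0.12 (95% interval 0.27 to 0.84, adjusted p = 0.199), and none of the 8 genes was called there, against 0.0147% of all genes; 2 of the 8, Inhba and Acvr1b, had an unadjusted p below 0.05, against 9.97%. Acvr1b was called there by DESeq2 (adjusted p = 0.0128), which called 1.52% of all genes, and not by limma-voom. Without replicate 1 of rM3Ds, the library of that group that did not stand apart, edgeR called Acvr1b against hM4Di cells (0.68, adjusted p = 0.0113). It was also called as lower in hM3Dq than in rM3Ds cells (-0.59, adjusted p = 0.0164, edgeR). These comparisons then called 392 and 590 genes of the whole table, against 2 and 91 in the main fit. Without the 3 libraries that stood apart, the values were 0.09 for rM3Ds against EGFP, 0.26 for rM3Ds against hM4Di and -0.15 for hM3Dq against rM3Ds (adjusted p = 1 each, edgeR). With a term for those libraries they were 0.26, 0.37 and -0.26 in the same order, and not called. At 3 days Acvr1b had 80.7, 71.4 and 74.8 CPM in hM3Dq cells and 63.1, 59.4 and 53.2 CPM in mCherry cells, with no overlap (0.37 ± 0.10, 95% interval 0.09 to 0.64, adjusted p = 0.263, edgeR).

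Acvr2a encodes a type II receptor that binds activin directly. It had 20.3, 19 and 20.5 CPM in hM3Dq cells, 20, 18.2 and 20.5 CPM in rM3Ds cells, 20.3, 17.1 and 15.1 CPM in hM4Di cells and 18.7, 19.3 and 21.1 CPM in EGFP cells. All 4 groups overlapped, and in hM3Dq against EGFP cells the log2 fold change was 0.02 ± 0.12, with a 95% interval of -0.25 to 0.29 (adjusted p = 0.991, edgeR). At 3 days it had 18.3, 18.9 and 20 CPM in hM3Dq cells and 17.7, 18.9 and 27.6 CPM in mCherry cells (-0.17 ± 0.17, adjusted p = 0.65). It shares 446 exon bases with Orc4 on the opposite strand, so its reads may be mixed with those of Orc4.

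Counting the genes whose hM3Dq and EGFP libraries did not overlap at 90 min, 3 of the 8 lay higher in hM3Dq cells (Inhba, Fst and Acvr1), against 8.26% of all genes tested, and 1 lay lower (Fstl3), against 6.5%. Against EGFP, 2 of the 8 lay higher in rM3Ds cells (Inhba and Acvr1b), against 3.9% of all genes, and 1 lower (Fst), against 3.61%. For Fst the separation was smaller than the digits printed, the nearest libraries being at 86.3 CPM in both groups. In hM4Di cells none lay higher than in EGFP cells, against 4.05%, and 1 lay lower (Acvr1b), against 4.47%. Set against rM3Ds cells, 3 of the 8 lay higher in hM3Dq cells (Inhba, Fst and Acvr1), against 11.4%, and 2 lower (Fstl3 and Acvr1b), against 10.4%. Set against hM4Di cells, those 3 lay higher in hM3Dq cells, against 11.3%, and Fstl3 lower, against 8.82%. In rM3Ds cells only Acvr1b of the 8 lay higher than in hM4Di cells, against 5.84%, and none lower, against 5.19%. In hM3Dq against mCherry cells at 3 days, 3 of the 8 lay higher without overlap (Inhba, Fstl3 and Acvr1b), against 12.1% of all genes, and none lower, against 13%. Comparisons at 90 min share libraries, so their counts are not independent.

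To set the genes beside each other, CPM was divided by exon length in kilobases. In hM3Dq cells at 90 min Fstl1 was highest (114 ± 13.3 CPM per kb, SD, n = 3), before Acvr1 (32.1 ± 2.12), Inhba (24.8 ± 1.44) and Fst (22.3 ± 1.52). Inhbb (12.9 ± 1.22), Acvr1b (11.1 ± 0.793), Acvr2a (3.51 ± 0.145) and Fstl3 (3.05 ± 0.0107) were lower. Inhba and Fst did not differ beyond 1 SD on either side, nor did Inhbb and Acvr1b. In EGFP cells Fstl1 (136 ± 54.1) and Acvr1 (23.6 ± 3.82) again led, followed by Fst (19.2 ± 0.513), Acvr1b (11.8 ± 0.675), Inhbb (11.2 ± 8.18) and Inhba (9.05 ± 1.91), then Fstl3 (3.82 ± 0.49) and Acvr2a (3.46 ± 0.22). There Acvr1b, Inhbb and Inhba overlapped in turn within 1 SD, and so did Fstl3 and Acvr2a. Inhba thus stood after Fst, Acvr1b and Inhbb in EGFP cells and before all 3 of them in hM3Dq cells. At 3 days Inhbb followed Fstl1, at 30.6 ± 0.271 CPM per kb in hM3Dq and 28.1 ± 5.08 in mCherry cells.

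The balance of Inhba and Fst was read on RNA only, as log2 Inhba minus log2 Fst in each library, from which library scaling cancels. Its sign is not interpreted, since the transcripts differ in length. It was 0.74, 0.71 and 0.45 in hM3Dq cells, 0.27, 0.03 and 0.37 in rM3Ds cells, 0.08, -0.38 and -0.85 in hM4Di cells and -0.98, -0.35 and -0.56 in EGFP cells. Both hM3Dq and rM3Ds cells lay above EGFP cells without overlap, whereas hM4Di cells overlapped them. The mean difference from EGFP was 1.26 for hM3Dq and 0.85 for rM3Ds (exact two-sided permutation p = 0.1 each, the smallest p that 3 against 3 libraries allow), and 0.25 for hM4Di (exact permutation p = 0.5). With 1 library left out the hM4Di value ranged from 0.02, without replicate 1 of hM4Di, to 0.48, without replicate 3. Between receptors it was 0.41 for hM3Dq minus rM3Ds, 1.01 for hM3Dq minus hM4Di (exact permutation p = 0.1 each) and 0.60 for rM3Ds minus hM4Di (exact permutation p = 0.2). At 3 days the balance was 1.64, 1.44 and 1.45 in hM3Dq cells and 1.30, 1.35 and 1.28 in mCherry cells, a difference of 0.20 with no overlap (exact permutation p = 0.1). These 7 comparisons are one family, and at 3 libraries a group none can pass 0.05.

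**Figure D4:**
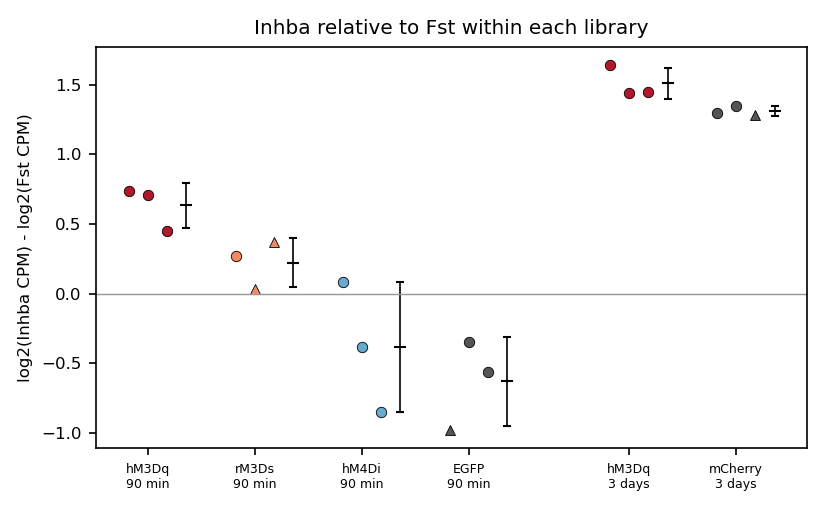
Log2 Inhba CPM minus log2 Fst CPM in each library (vertical axis) for the 6 groups; points are replicates 1 to 3, triangles are libraries that stood apart, and bars are mean ± SD. In hM3Dq cells at 90 min it lies between 0.45 and 0.74, above the EGFP libraries at -0.98 to -0.35.

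The other genes of the pathway were read from 4 lists with 37 different genes, of which 29 were tested in hM3Dq against EGFP cells at 90 min and 2 were called, both as higher, against 0.788% of all genes. Other activin genes (subunits, receptors, processing enzymes and modulators) gave 0 of 7 tested of 15 listed, with a median log2 fold change of -0.12 and 1 unadjusted p below 0.05. SMADs and their partners gave 0 of 7, with a median of 0.08 and none at an unadjusted p below 0.05. Repressors of SMAD signalling gave 1 of 9, with a median of -0.07 and 3 unadjusted p below 0.05, and targets of SMAD2 and SMAD3 gave 1 of 9, with a median of 0.10 and 2 unadjusted p below 0.05. Some genes are in both the repressor and the target list, so the counts of these lists are not separate. Over all genes 7.94% had an unadjusted p below 0.05. The median over all genes was 0.

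Junb, which encodes an AP-1 subunit and is an immediate early gene as well as a SMAD target, had 260, 257 and 234 CPM in hM3Dq cells and 100, 110 and 97.4 CPM in EGFP cells (1.29 ± 0.10, adjusted p = 5.18e-05, edgeR). Tgif1, a co-repressor that binds SMAD2, had 72.6, 83.4 and 82.2 CPM in hM3Dq cells and 42.2, 46.1 and 54.4 CPM in EGFP cells (0.74 ± 0.12, adjusted p = 0.0158, edgeR). The groups did not overlap for either gene. Junb kept its call in all 17 alternatives, and Tgif1 lost it in 6, with adjusted p values up to 0.111.

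Other targets and repressors of the same SMADs did not pass. Smad7, an inhibitory SMAD and a target of the pathway, had 31.4, 35.1 and 27.4 CPM in hM3Dq cells and 36.8, 32.2 and 31.4 CPM in EGFP cells (-0.10 ± 0.20, adjusted p = 0.973, edgeR). Pmepa1, which encodes a membrane protein that sequesters SMAD2 and SMAD3, had 171, 156 and 159 CPM in hM3Dq cells and 132, 105 and 107 CPM in EGFP cells, without overlap (0.50 ± 0.12, adjusted p = 0.141). Smad3, a SMAD that activin receptors phosphorylate, had 289, 333 and 296 CPM in hM3Dq cells and 167, 301 and 286 CPM in EGFP cells (0.28 ± 0.20, adjusted p = 0.822), and the low EGFP value was that of the library that stood apart. Inha, whose product joins a beta subunit to form inhibin in place of activin, had 7.93, 7.56 and 7.28 CPM in hM3Dq cells and 5.58, 10.3 and 8.87 CPM in EGFP cells (-0.12 ± 0.23). Pcsk6, a protease that processes TGF-beta family precursors, had 9.17, 11.3 and 8.96 CPM in hM3Dq cells and 90.7, 14.2 and 12.9 CPM in EGFP cells (-2.01 ± 0.78, adjusted p = 0.546); the high EGFP value was that of the library that stood apart.

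Between receptors, Junb was also called as higher in hM3Dq cells, by 1.07 (adjusted p = 0.000533) against rM3Ds and by 1.18 (adjusted p = 0.000124) against hM4Di, in edgeR's quasi-likelihood test. Tgif1 was called against rM3Ds (0.66, adjusted p = 0.0371). That call was lost in 10 of 16 alternatives. In rM3Ds or hM4Di against EGFP cells, and in hM3Dq against mCherry cells at 3 days, no gene of the 4 lists was called. The hM3Dq effect on Tgif1 was smaller at 3 days than at 90 min (-0.83 ± 0.15, adjusted p = 0.037). This call was lost in 11 of 20 alternatives, in which the fit without replicate 1 of EGFP is counted under both its settings.

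**Figure D5:**
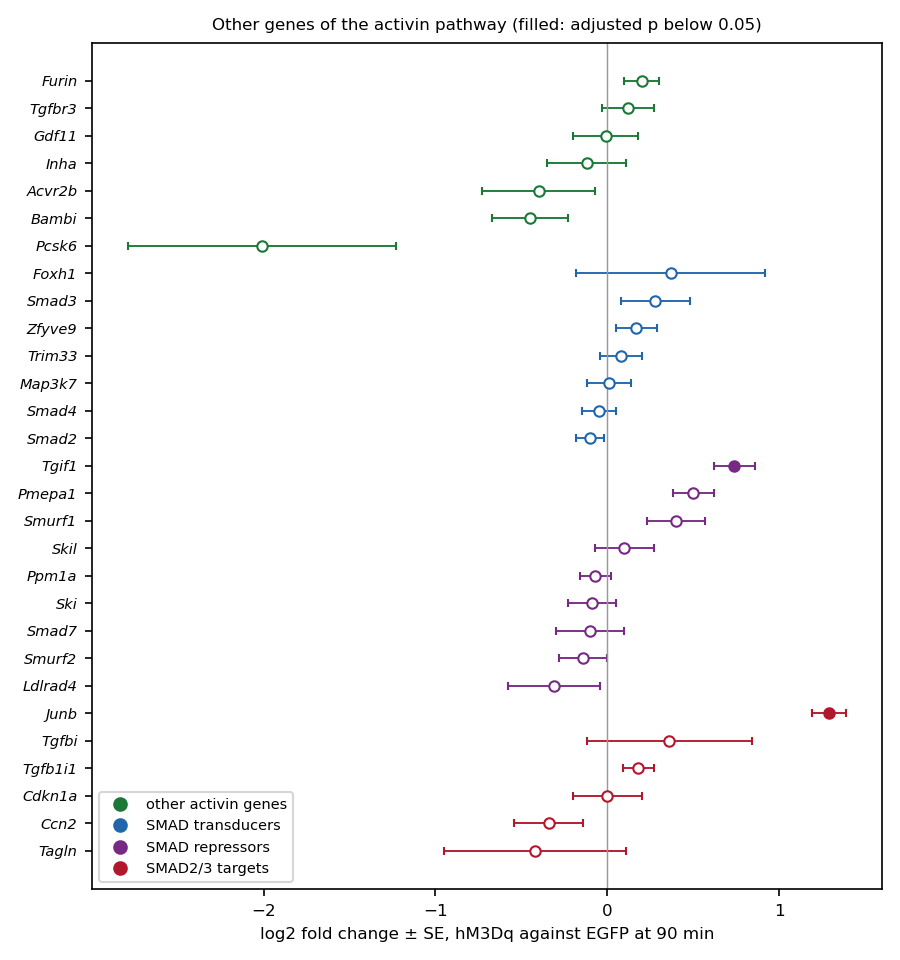
Log2 fold change ± SE (horizontal axis) in hM3Dq against EGFP cells at 90 min for the 29 other pathway genes that were tested, coloured by list; filled points have an adjusted p below 0.05. The 2 filled points are Junb at 1.29 and Tgif1 at 0.74.

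The genes most like Inhba were found by the correlation of log2 CPM over the 12 libraries at 90 min, among the 11906 genes whose log2 CPM averaged 1 or more. They were Nr4a3 (0.962) and Nr4a2 (0.945), which encode orphan nuclear receptors, Fosl2 (0.954), which encodes an AP-1 subunit, Socs6 (0.944), from a family of signalling suppressors, and Tgfbr1 (0.941), the type I receptor for TGF-beta. The points share groups and libraries, and after the group means were taken off the values were 0.728 for Nr4a3, 0.651 for Fosl2, 0.399 for Nr4a2, 0.642 for Socs6 and 0.812 for Tgfbr1. Over the 6 libraries at 3 days they were 0.851, 0.891 and 0.912 for Nr4a3, Fosl2 and Nr4a2, 0.381 for Socs6 and -0.122 for Tgfbr1. In hM3Dq against EGFP cells Nr4a3 rose by 3.32 (adjusted p = 0.00143, edgeR), Nr4a2 by 3.21 (5.32e-06) and Fosl2 by 1.47 (0.00302). Socs6 (0.40, 0.0536) and Tgfbr1 (0.59, 0.0865) were not called by edgeR. These genes were picked by likeness to Inhba over the same libraries, so a rise in hM3Dq cells is partly built in by the choice.

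None of the other 7 genes was among those most like Inhba. The nearest was Acvr1, with a correlation of 0.616 at rank 611, and the farthest was Fstl3, with -0.62 at rank 11662. Fst had 0.498, Acvr2a 0.49, Inhbb 0.294, Acvr1b 0.0838 and Fstl1 -0.25. After the group means were taken off, the values were 0.806 for Acvr2a, 0.506 for Inhbb, 0.403 for Acvr1, 0.0318 for Fstl3, -0.0528 for Acvr1b, -0.475 for Fst and -0.506 for Fstl1. Fst, Fstl3 and Acvr1b thus changed sign, and Acvr2a lay above all of the 5 genes named before except Tgfbr1. At 3 days the value of Fstl3 was 0.843 over 6 libraries, of the opposite sign to that at 90 min.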

How the data were processed

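RNA-seq libraries of 18 samples were used, grouped by the labels, 3 in each of 6 groups. The authors deposited estimated counts per gene, not normalised, in 1 table for 90 min and 1 for 3 days; 55.9% and 30.5% of their values were not whole. Per the submitters' processing notes, Salmon 1.8.0, fastp 0.23.4 and build mm39 are named, with their roles not stated; strand and the summing of transcripts are not given in the sources used here.

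Counts were rounded and tested with edgeR 4.0.16 (R 4.3.3; quasi-likelihood, robust, TMM, edgeR's default filter). The 4 groups at 90 min were fitted together (8 residual degrees of freedom), the 6 libraries at 3 days alone (4), and the difference between times as an interaction over 12 libraries (8). SE is the log2 fold change divided by the root of F. DESeq2 1.42.0, limma-voom (limma 3.58.1), other scalings and filters, a replicate block, omission of libraries and a term for the libraries that stood apart were alternatives; the test was tried on simulated data. Symbols matched 21978 of 22078 identifiers (99.55%); the rest held 0.0344% of the counts. Lengths and overlaps come from GENCODE M21 (GRCm38), not the authors' annotation, so CPM per kb is approximate. Promoter windows are the 250 bases before RefSeq starts in GRCm38.p6; coordinates in mm39 are not given.

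The labels number replicates 1 to 3 without saying that these are separate cultures, so p-values speak only of library-to-library spread, part of which may be technical. Whether numbers pair libraries was checked from deviations around group means: same-numbered hM3Dq and EGFP libraries had correlations of 0.133, 0.162 and 0.123, all over 0.1, and were treated as paired in an alternative fit chosen after this check was seen. No other pair of groups reached 0.1 at all 3 numbers. Same-numbered hM4Di and EGFP libraries came close, at 0.373, 0.0983 and 0.305, and no paired fit of those groups alone was run.

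Named genes were the 8 genes, in each pathway list the called genes or, with none called, the gene with the smallest p, and the 5 genes most like Inhba (prior count 2). Flt1, Smad7, Pmepa1, Inha and the marker genes were named after their values were seen. The 8 genes, the lists and the tests were chosen with earlier results of these data known. Floors cover counting error only. Each 95% interval is the log2 fold change ± SE times the t quantile at the residual degrees of freedom alone. It thus reflects spread between libraries. One gene of the SMAD target list was left out of that list and is not reported here.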

Additional observations from a re-analysis of the deposited data

Results flagged for a closer look

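The hM3Dq effect on Inhba was called as different between the 2 times in the main fit. At 90 min Inhba was higher in hM3Dq than in EGFP cells by 1.46 on the log2 scale, and at 3 days it was higher in hM3Dq than in mCherry cells by 0.29. The difference of the 2 effects, 3 days minus 90 min, was -1.16 ± 0.20 (adjusted p = 0.025, edgeR's quasi-likelihood test over all genes). Its direction held in all 20 alternatives, but the call was lost in 8 of them, including omission of any 1 hM3Dq library. In hM3Dq cells the mean was 154 ± 6.23 CPM at 3 days and 159 ± 9.22 CPM at 90 min (SD, n = 3 each). In control cells it was 126 ± 13.8 CPM at 3 days with mCherry and 57.8 ± 12.2 CPM at 90 min with EGFP. The times were scaled separately, and these levels were not tested across them. The control plasmid and the time cannot be told apart here.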

How the results depend on the processing

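The rise of Inhba in hM3Dq against EGFP cells kept its call in 16 of 17 alternatives, at 1.29 to 1.59, and lost it only in the paired fit of the 2 groups, which called 0 of the 8 genes and 28 genes in all. With the replicate block in the fit of all 4 groups it was 1.45 (adjusted p = 0.0216). The number of the 8 genes called moved as follows: with DESeq2 to 1 for rM3Ds against EGFP (56 genes called in all), 4 for hM3Dq against rM3Ds (463), 2 for hM3Dq against hM4Di (420) and 1 for rM3Ds against hM4Di (205); with only 2 groups fitted to 1 for hM3Dq against rM3Ds; with the replicate block to 0 for hM3Dq against hM4Di and for the difference between times; and without the 3 libraries that stood apart, or with a term for them, to 2 for hM3Dq against hM4Di. With 1 library left out it was 0 to 2 for hM3Dq against rM3Ds and for 3 days, and 0 to 1 for hM3Dq against hM4Di, rM3Ds against hM4Di and the difference between times. Over all alternatives the whole table gave 28 to 232 called genes for hM3Dq against EGFP (main value 107), 0 to 115 for rM3Ds (2), 0 to 35 for hM4Di (0), 25 to 590 for hM3Dq against rM3Ds (91), 38 to 420 for hM3Dq against hM4Di (109), 0 to 392 for rM3Ds against hM4Di (2), 0 to 1257 at 3 days (0) and 28 to 202 for the difference between times (53). Of the values recomputed for single genes, 1098 stayed as reported, 41 lost and 15 gained a call, and 57 changed sign; the cause was not tested. The balance changed sign in no comparison.

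No value that changed sign was called. Without the 3 libraries that stood apart, Inhbb was -0.31 (hM3Dq against EGFP), -0.37 (hM4Di against EGFP), -0.31 (hM3Dq against rM3Ds), 0.36 (rM3Ds against hM4Di) and 0.43 (between times). Fstl1 was then 0.11, 0.04, 0.09, -0.03 and -0.10 in the same comparisons and 0.01 for rM3Ds against EGFP, Acvr2a was -0.03 (hM3Dq against EGFP) and Acvr1 0.06 (rM3Ds against hM4Di). With a term for those libraries, Inhbb was -0.16 (hM3Dq against EGFP), 0.47 (rM3Ds against EGFP), -0.21 (hM4Di against EGFP), -0.63 (hM3Dq against rM3Ds) and 0.68 (rM3Ds against hM4Di). Fstl1 was then 0.04 (hM3Dq against EGFP), 0.24 (hM3Dq against rM3Ds) and -0.18 (rM3Ds against hM4Di), Acvr2a -0.01 (hM3Dq against EGFP), 0.02 (rM3Ds against EGFP) and -0.02 (hM3Dq against rM3Ds), and Acvr1 0.08 (rM3Ds against hM4Di). Upper-quartile scaling turned Acvr2a to -0.01 (hM3Dq against EGFP) and Inhbb to -0.01 (hM3Dq against hM4Di), and Fstl1 in rM3Ds against EGFP was 0.05 with limma-voom and 0.03 with the replicate block.

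With 1 library left out, values that changed sign covered the following ranges. Fstl3 covered -0.07 to 0.27 for hM4Di against EGFP. Inhbb covered -0.05 to 0.21 for hM3Dq against hM4Di, -0.34 to 0.63 for hM4Di against EGFP, -0.30 to 0.67 for hM3Dq against EGFP, -0.02 to 0.22 for 3 days and -0.54 to 0.43 for the difference between times. Fstl1 covered -0.06 to 0.15 for hM3Dq against hM4Di, -0.17 to 0.37 for rM3Ds against EGFP, -0.42 to 0.12 for hM3Dq against EGFP, -0.48 to 0.07 for hM4Di against EGFP, -0.06 to 0.12 for 3 days and -0.10 to 0.44 for the difference between times. Acvr2a covered -0.04 to 0.04 for rM3Ds against EGFP, -0.03 to 0.05 for hM3Dq against rM3Ds, -0.02 to 0.07 for hM3Dq against EGFP, -0.29 to 0.06 for 3 days and -0.30 to 0.04 for the difference between times. Acvr1 covered -0.14 to 0.06 for hM4Di against EGFP and -0.01 to 0.07 for 3 days. The term for the libraries that stood apart was not run for the difference between times, where it equals leaving out replicate 1 of EGFP. At 16.1 to 25.2 M counts per library depth limits Fstl3 most among the 8 genes. Where 1 library of a group was left out, the fit pooled the spread over groups.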
